A study of Mus musculus with 8 samples.

Results

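The 46 genes described here encode proteins that carry a cell through mitosis and cytokinesis, from the cyclin and kinase pair that starts mitosis to the proteins that cut the daughter cells apart. They were taken by symbol from a fixed list of mitosis and cytokinesis genes, which was chosen with earlier results of these data known. All 46 were found among the 49315 genes of the count files, and all 46 passed the filter on low counts, which kept 14970 genes. The study sequenced polyadenylated RNA from mouse OT-I CD8 T cells, cytotoxic T cells with a transgenic receptor for an ovalbumin peptide, here with the CD45.1 marker. The labels call 4 libraries Control KO (genotype Control KO; WT), from cells edited with a guide RNA against the bacterial gene LacZ, and 4 libraries Carm1 KO, from cells edited with a guide RNA against Carm1, which encodes an arginine methyltransferase. Both groups were naive CD8 T cells from spleen and inguinal lymph nodes of OT-I mice, edited with CRISPR-Cas9 by nucleofection, kept in medium with interleukin-7 (2.5 ng/ml) and interleukin-15 (50 ng/ml), and lysed 7 days after editing. The sources used here do not give the age or number of the mice. The series text differs from the sample protocols in placing both groups in co-culture with B16F10 melanoma cells that express ovalbumin. The libraries of each group are called technical replicates, so every p-value here measures only the spread between these libraries, and an effect of the edit and other differences between the 2 preparations cannot be told apart.

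Cells copy their DNA in S phase and pull the copies apart in mitosis, and the genes for mitosis are transcribed late in the cycle. In resting cells a complex built on the MuvB proteins and the pocket proteins holds these genes down, and in dividing cells MuvB with B-MYB and then FOXM1 turns them on. Many of their promoters carry the cell cycle genes homology region (CHR), which MuvB binds, and the CCAAT box, which the factor NF-Y binds. In CD8 T cells the transcripts of this set are commonly read as a measure of how many cells are dividing.

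RefSeq promoter windows (GRCm38.p6, the assembly of mm10), running from 250 bases before to 50 bases after a start site, were at hand for 39 of the 46 genes, in 45 windows. A CHR was searched as TTTGAA or TTTAAA and a CCAAT box as CCAAT, both on either strand, and a base can belong to more than 1 match, as where a CCAAT box overlaps one on the other strand. At least 1 CHR lay in 32 of the 45 windows (71.1%), against 27.6% of all 32851 windows of the same length. A CCAAT box lay in 35 windows (77.8%), against 37.4% of all windows, and both motifs lay in 26 windows (57.8%), against 10.7%. An E2F motif, searched as TTTGGCG or TTTCGCG on either strand, lay in 2 windows (4.44%, against 2.37% of all). Of the 45 CHR matches in these windows, 33 (73.3%) began between 50 bases before and 49 bases after the start site, against 25.1% of the matches in all windows. A site within overlapping windows of a gene counts once in each window. By gene, 28 of 39 (71.8%) had a CHR, against 30.6% of all 27025 genes with a window. A match is a description of letters and not evidence of binding.

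Windows are printed to let a reader see these motifs in genes that rose by very different amounts or fell, with each CHR and CCAAT match in capitals, 5′ to 3′ on the strand of the gene. The first 4 are the genes with both motifs that had the highest mean CPM over both groups, which does not correct for length. They are the topoisomerase gene Top2a, the checkpoint gene Bub3, the cytokinesis gene Racgap1 and the proliferation marker Mki67.
Top2a (chr11:99024140-99024439, minus strand): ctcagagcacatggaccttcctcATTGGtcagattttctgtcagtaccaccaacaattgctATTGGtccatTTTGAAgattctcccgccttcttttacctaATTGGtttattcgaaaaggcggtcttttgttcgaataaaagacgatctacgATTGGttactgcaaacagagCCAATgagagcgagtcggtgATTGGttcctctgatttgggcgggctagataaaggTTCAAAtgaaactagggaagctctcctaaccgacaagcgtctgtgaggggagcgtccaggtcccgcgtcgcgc
Bub3 (chr7:131560120-131560419, plus strand): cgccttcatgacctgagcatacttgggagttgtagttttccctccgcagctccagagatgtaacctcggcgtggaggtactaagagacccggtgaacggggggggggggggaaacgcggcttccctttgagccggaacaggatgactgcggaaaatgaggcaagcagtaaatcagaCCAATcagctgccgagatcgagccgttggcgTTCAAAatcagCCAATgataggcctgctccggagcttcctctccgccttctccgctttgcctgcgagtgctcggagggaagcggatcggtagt
Racgap1 (chr15:99651607-99651906, minus strand): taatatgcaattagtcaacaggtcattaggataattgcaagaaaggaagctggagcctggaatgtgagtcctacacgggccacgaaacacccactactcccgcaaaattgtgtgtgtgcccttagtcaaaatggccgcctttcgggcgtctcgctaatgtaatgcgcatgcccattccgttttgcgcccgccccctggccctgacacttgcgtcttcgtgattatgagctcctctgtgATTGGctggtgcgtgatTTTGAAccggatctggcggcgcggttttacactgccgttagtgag
Mki67 (chr7:135716330-135716629, minus strand): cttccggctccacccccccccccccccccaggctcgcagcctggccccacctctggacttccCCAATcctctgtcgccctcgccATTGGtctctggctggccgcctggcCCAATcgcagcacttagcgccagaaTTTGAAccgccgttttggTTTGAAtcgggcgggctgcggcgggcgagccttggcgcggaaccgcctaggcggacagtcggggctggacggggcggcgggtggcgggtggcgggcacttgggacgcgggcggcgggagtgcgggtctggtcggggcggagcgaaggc

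The next 4 were chosen after their values were seen, to span the range of differences. Psrc1, Cenpa and Ube2c rose most of the 46 genes, and Plk4 fell most.
Psrc1 (chr3:108383554-108383853, plus strand): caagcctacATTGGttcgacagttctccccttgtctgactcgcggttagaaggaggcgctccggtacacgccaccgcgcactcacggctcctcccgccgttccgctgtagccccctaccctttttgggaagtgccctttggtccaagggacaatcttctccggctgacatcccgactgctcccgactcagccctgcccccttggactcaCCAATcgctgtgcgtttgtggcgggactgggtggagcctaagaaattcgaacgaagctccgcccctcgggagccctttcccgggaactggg
Cenpa (chr5:30666636-30666935, plus strand): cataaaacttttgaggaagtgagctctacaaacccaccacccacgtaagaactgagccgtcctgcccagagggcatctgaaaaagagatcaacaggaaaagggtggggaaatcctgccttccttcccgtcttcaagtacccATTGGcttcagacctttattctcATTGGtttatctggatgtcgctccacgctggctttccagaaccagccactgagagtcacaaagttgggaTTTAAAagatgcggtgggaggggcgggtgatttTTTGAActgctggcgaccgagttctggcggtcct
Ube2c (chr2:164769679-164769978, plus strand): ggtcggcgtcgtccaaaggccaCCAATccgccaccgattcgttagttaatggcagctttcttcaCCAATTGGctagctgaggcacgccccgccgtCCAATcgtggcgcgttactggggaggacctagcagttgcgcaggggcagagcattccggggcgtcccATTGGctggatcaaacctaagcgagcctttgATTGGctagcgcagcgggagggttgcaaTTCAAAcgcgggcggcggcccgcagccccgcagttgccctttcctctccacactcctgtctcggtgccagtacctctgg
Plk4 (chr3:40799701-40800000, plus strand): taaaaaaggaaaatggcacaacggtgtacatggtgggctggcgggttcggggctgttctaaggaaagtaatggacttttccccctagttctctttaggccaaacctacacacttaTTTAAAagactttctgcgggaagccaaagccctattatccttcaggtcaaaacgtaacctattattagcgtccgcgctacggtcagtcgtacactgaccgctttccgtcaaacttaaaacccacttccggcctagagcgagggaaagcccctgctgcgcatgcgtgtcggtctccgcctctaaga

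Among these 8 windows, those of Cenpa and Ube2c hold both motifs, that of Psrc1 holds CCAAT boxes and no CHR match, and that of Plk4 holds a CHR match and no CCAAT box. The windows of Bub3, which fell, and of Top2a, which rose by a log2 value of only 0.11, also hold both motifs. Over the 39 genes, the median log2 fold change (Carm1 KO minus Control KO) was 1.31 for the 23 with both motifs, 0.83 for 5 with a CHR alone, 1.23 for 7 with a CCAAT box alone and 0.82 for 4 with neither. The ranges overlapped, from -0.47 to 2.99 with both motifs and from 0.18 to 2.16 with neither. Of all 1081 tested genes with both motifs, 24.0% were at least 2-fold higher in the Carm1 KO libraries, against 19.4% of the 4658 with neither.

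**Figure D1:**
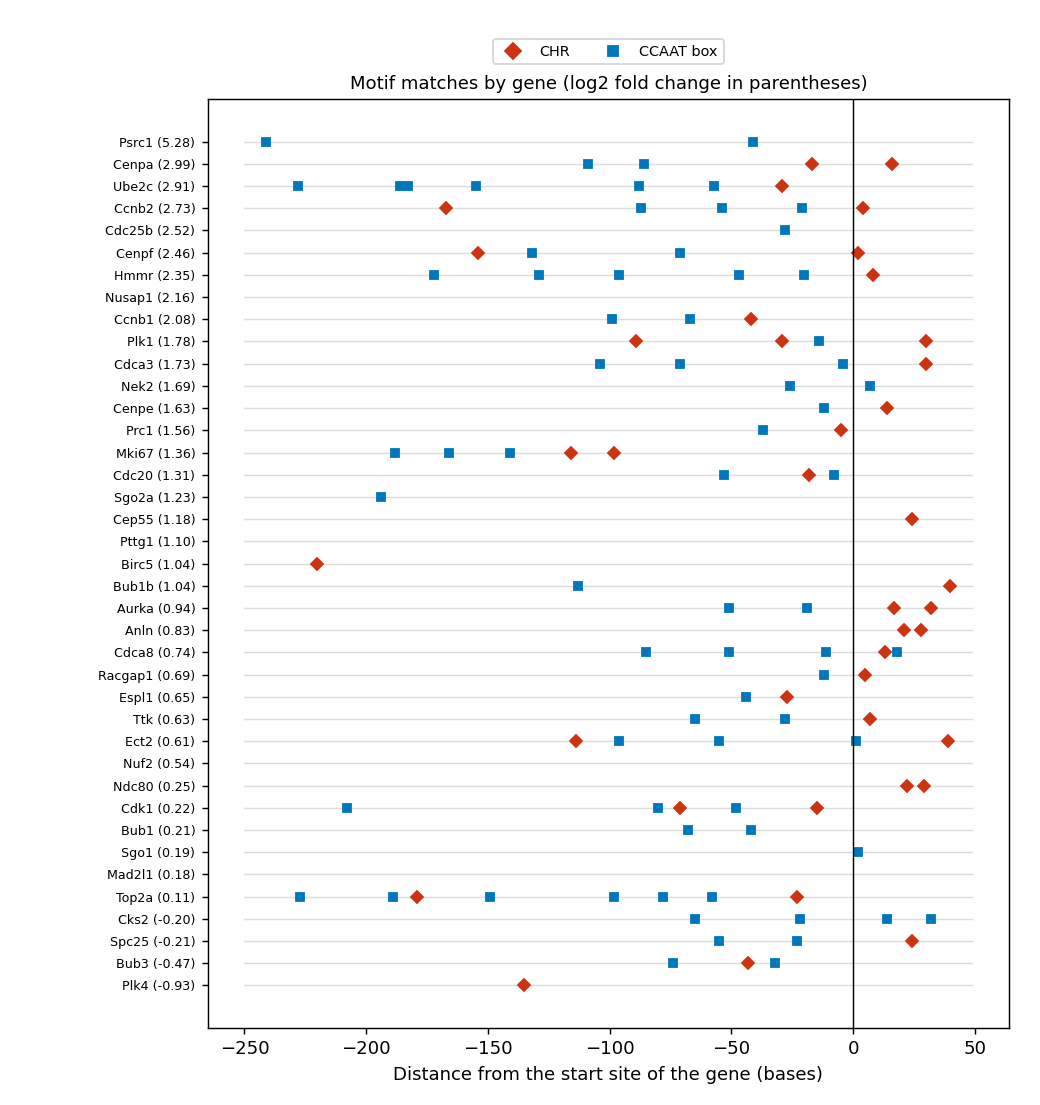
Position of each CHR match (diamond) and CCAAT match (square) in bases from the start site, 1 row per gene, for the 39 genes with a promoter window, ordered from the largest rise to the largest fall, with the log2 fold change in parentheses (for a gene with several windows, the first with a match). Over all genes shown, most CHR matches lie near the start site. Of the genes that fell, Bub3, Spc25 and Plk4 have a CHR match and Cks2 has none.

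Library totals were 38768760 to 41439998 counts for Control KO and 37556330 to 39988442 counts for Carm1 KO. Levels are CPM (counts divided by TMM-scaled library sizes and brought to 1 common total), given as mean ± SD over the 4 libraries of a group, and levels of different genes are compared only per kilobase of exon (RPKM). Carm1 itself fell from 95.9 ± 1.04 to 32.8 ± 0.493 CPM (log2 fold change -1.55 ± 0.027, SE), with no overlap. Differences were very common: 87.7% of the 14970 genes passed an edgeR quasi-likelihood test at an adjusted p under 0.05, 44.5% higher and 43.2% lower, and the split of the passing genes moved from 50.8% higher with TMM to 61.0% higher with upper-quartile factors and 58.4% with library totals alone. Against TMM, the median over all genes shifted under these scalings, in log2, by 0.215 and 0.160. Among markers of other cells, all 10 myeloid genes fell (summed level 132 to 137 CPM in Control KO and 8.44 to 9.75 CPM in Carm1 KO, Lyz2 83.1 and 0.148 CPM, S100a8 and S100a9 with no count in the Carm1 KO libraries), as did all 5 natural killer cell genes (22.6 to 24.3 CPM in Control KO and 3.87 to 5.07 CPM in Carm1 KO). Of the B cell genes 3 were higher and 1 lower (274 to 281 CPM in Control KO and 931 to 957 CPM in Carm1 KO), chiefly Ighm, while Ms4a1 and Pax5 were under the filter. The T cell genes were abundant in both groups (6838 to 7005 CPM in Control KO and 8195 to 8439 CPM in Carm1 KO), with 8 of 11 higher and 3 lower. The part of these cells in the results below was not tested, and fewer cells of a type and less RNA per cell cannot be told apart in bulk RNA. Of 7 melanocyte and melanoma genes (summed level 4.05 to 4.31 CPM in Control KO and 13.8 to 15.1 CPM in Carm1 KO) 2 were higher and 5 were under the filter. Those higher were Pmel, at 3.43 ± 0.147 and 12.7 ± 0.563 CPM (3.69-fold), and Mitf, at 0.788 ± 0.0360 and 1.91 ± 0.192 CPM (2.42-fold). Tyr, Tyrp1, Dct and Sox10 had no count in any library, and Mlana averaged 0.00678 CPM in Control KO and had no count in Carm1 KO.

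Transcripts for mitosis and cytokinesis were higher in the Carm1 KO libraries for most of the set. Of the 46 genes, 41 were called higher and 5 lower, where 44.5% of all tested genes were called higher and 43.2% lower. The rise was at least 2-fold for 22 genes, 47.8% of the set, against 20.5% of all tested genes, and no gene fell by 2-fold, against 15.2% of all. The median log2 fold change of the set was 0.89, beside 0.02 for all genes tested. In 44 of the 46 genes the 2 groups of libraries did not overlap, 40 higher and 4 lower, against 42.2% of all tested genes apart and higher, 41.2% apart and lower, and 83.4% in either direction. The 46 genes together took 0.0979% ± 0.000411 of all counts in Control KO and 0.201% ± 0.00150 in the Carm1 KO libraries.

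The differences spread over a wide range within the set. Of the genes that rose, 10 were at least 4-fold higher, 12 were 2-fold to under 4-fold, 11 were 1.5-fold to under 2-fold and 8 were under 1.5-fold higher. Those at 4-fold or more were Psrc1, Cenpa, Ube2c, Ccnb2, Cdc25b, Cenpf, Hmmr, Cdc25c, Nusap1 and Ccnb1. The 5 genes that fell were Plk4, Spc24, Bub3, Spc25 and Cks2. With upper-quartile factors 41 genes were higher and 3 lower, because Cks2 and Spc25 no longer passed and turned to log2 fold changes of 0.018 and 0.0094.

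**Figure D2:**
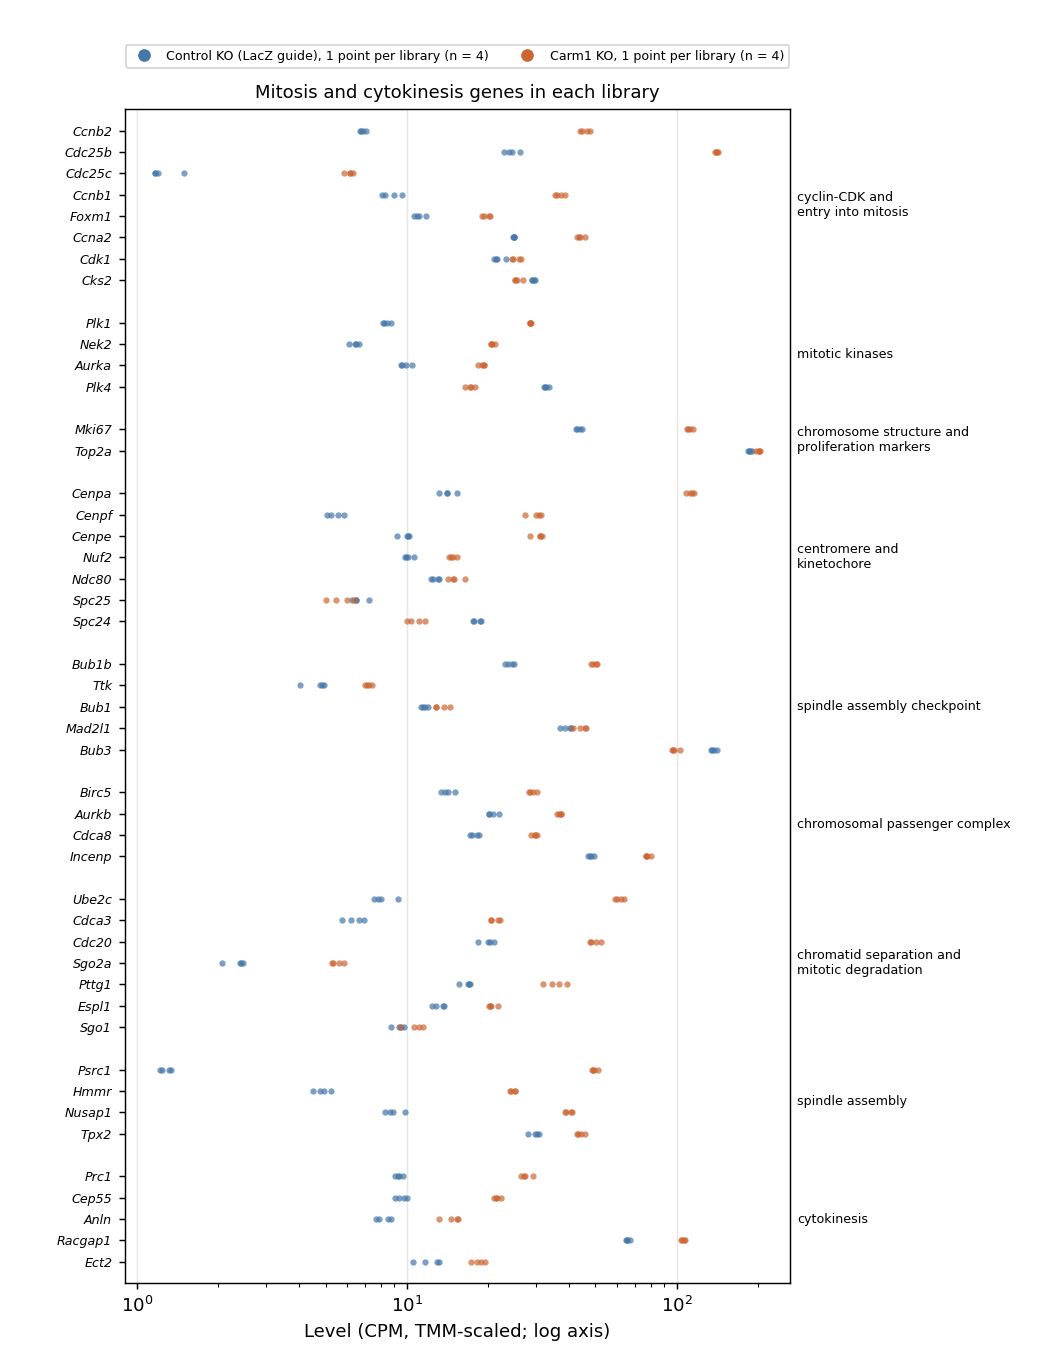
Level of each of the 46 genes in CPM (log axis), 1 point per library, with genes grouped by role and ordered by fold change within each role. The points of the groups are apart for 44 genes and overlap for Spc25 and Sgo1, and Psrc1 shows the widest gap.

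Entry into mitosis is driven by CDK1 bound to cyclin B, after phosphatases of the CDC25 family remove inhibitory phosphates. In this group of 8 genes, 7 rose and Cks2 fell, and the cyclins and phosphatases rose far more than the kinase. Ccnb2, which encodes cyclin B2, was at 6.77, 6.72, 6.87 and 7.07 CPM in Control KO replicates 1 to 4 and at 46.4, 44.4, 44.0 and 47.6 CPM in Carm1 KO replicates 1 to 4. All 4 Carm1 KO libraries lay far above those of Control KO, and the log2 fold change was 2.73 ± 0.046 (adjusted p = 4.1e-38, edgeR). Ccnb1, for cyclin B1, was at 8.11, 8.27, 9.63 and 8.93 CPM in Control KO and at 36.0, 37.1, 35.4 and 38.7 CPM in Carm1 KO libraries. Its log2 fold change was 2.08 ± 0.049 (adjusted p = 5.6e-33, edgeR), again with no overlap. Ccna2, for cyclin A2, which acts in S phase and early mitosis, rose less, from 24.9 ± 0.0890 to 43.9 ± 1.20 CPM (1.77-fold). Its exons share 510 bases, 12.5% of their length, with those of Exosc9 on the opposite strand, and the library kit does not mark strand. Exosc9 counts moved the other way, with a mean of 1580 per library in Control KO and 936 in Carm1 KO.

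Cdk1, the kinase itself, was at 21.0, 21.6, 23.4 and 21.5 CPM in Control KO and at 26.4, 24.5, 24.7 and 26.1 CPM in Carm1 KO libraries. The groups lay close but did not overlap, with a log2 fold change of 0.22 ± 0.043 (adjusted p = 1.2e-05, edgeR), a difference below 1.5-fold. The ratio of Ccnb2 to Cdk1 within a library, each in RPKM and so free of library scaling, was 0.706 ± 0.0347 in Control KO and 4.03 ± 0.0698 in Carm1 KO libraries. That of Ccnb1 to Cdk1 was 0.326 ± 0.0142 in Control KO and 1.18 ± 0.0543 in Carm1 KO libraries. In RPKM each B-type cyclin was therefore below the kinase in the Control KO libraries and above it in the Carm1 KO ones. That order depends on the exon lengths used, and the change of the ratio between groups does not.

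Cdc25b, for a phosphatase that activates CDK1 at the start of mitosis, was at 24.0, 24.6, 22.9 and 26.3 CPM in Control KO and at 139, 142, 141 and 139 CPM in Carm1 KO libraries. It had the highest Carm1 KO level of the 46 genes in RPKM, 37.6 against 6.56 in the control, and a log2 fold change of 2.52 ± 0.03 (adjusted p = 1.6e-43, edgeR). Cdc25c, for a related phosphatase, rose from a low level, from 1.26 ± 0.159 to 6.12 ± 0.205 CPM (4.84-fold). Foxm1, for the transcription factor of late cell cycle genes, rose from 11.1 ± 0.487 to 19.7 ± 0.636 CPM (1.78-fold). Cks2, for a small subunit of cyclin-dependent kinases, was at 29.2, 29.1, 29.7 and 29.9 CPM in Control KO and at 25.2, 25.6, 25.2 and 26.9 CPM in Carm1 KO libraries. Its Carm1 KO libraries all lay below the Control KO libraries, by a log2 value of -0.20 ± 0.038 (adjusted p = 1.0e-05, edgeR). With library totals alone the adjusted p was 0.35, and with upper-quartile factors 0.66 at a log2 fold change of 0.018. Over all alternatives it ran from 3.6e-08 to 1.0. The upper end came from the test against a 1.5-fold change, which asks for a larger difference.

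The kinases of mitosis proper rose, and the kinase of centriole duplication fell. Plk1, which drives several steps from entry to cytokinesis, was at 8.16, 8.70, 8.22 and 8.43 CPM in Control KO and at 28.6, 28.8, 28.7 and 28.7 CPM in Carm1 KO libraries. Its log2 fold change was 1.78 ± 0.047 (adjusted p = 2.2e-31, edgeR), with a wide gap between the groups. Nek2, for a kinase that separates centrosomes, rose 3.23-fold, and Aurka, for the spindle pole kinase Aurora A, rose 1.92-fold. Plk4, which starts the copying of centrioles around the start of S phase, was at 33.7, 32.2, 32.6 and 32.5 CPM in Control KO and at 17.1, 16.5, 17.2 and 17.8 CPM in Carm1 KO libraries. The groups did not overlap, at a log2 fold change of -0.93 ± 0.04 (adjusted p = 1.2e-23, edgeR). Within a library the ratio of Plk1 to Plk4 in RPKM was 0.798 ± 0.0375 in Control KO and 5.22 ± 0.184 in Carm1 KO libraries.

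Of the markers widely used to call cells dividing, Mki67 rose and Top2a rose by little. Mki67, for the chromosome surface protein Ki-67, was at 43.9, 44.4, 42.5 and 42.6 CPM in Control KO and at 109, 115, 112 and 111 CPM in Carm1 KO libraries. Its log2 fold change was 1.36 ± 0.026 (adjusted p = 3.6e-36, edgeR). Top2a, for the topoisomerase that untangles sister chromatids, was at 184, 186, 187 and 190.5 CPM in Control KO and at 197, 202, 203 and 204 CPM in Carm1 KO libraries. Its groups did not overlap, but the log2 fold change of 0.11 ± 0.022 (adjusted p = 2.2e-05, edgeR) did not pass the test against a 1.5-fold change (adjusted p = 1.0). Top2a held 18.0% of the summed CPM of the 46 genes in Control KO and 10.6% in the Carm1 KO libraries, shares not corrected for length.

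At the centromere and kinetochore, which fix chromosomes to spindle microtubules, 5 of 7 genes rose and 2 fell. Cenpa, for the histone H3 variant that marks centromeres, was at 13.1, 14.1, 15.3 and 14.0 CPM in Control KO and at 114, 116, 109 and 112 CPM in Carm1 KO libraries. The log2 fold change was 2.99 ± 0.035 (adjusted p = 8.4e-44, edgeR), the largest of the set after Psrc1. Cenpf, for a large protein of the outer kinetochore, rose from 5.43 ± 0.342 to 29.9 ± 1.79 CPM (5.50-fold), and Cenpe, for a kinetochore motor, rose 3.10-fold.

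The NDC80 complex, which binds microtubule ends, is built of a Ndc80 and Nuf2 pair and a Spc24 and Spc25 pair, and Ndc80 and Nuf2 rose while Spc24 fell. Nuf2 was at 10.7, 9.90, 10.1 and 9.85 CPM in Control KO and at 14.6, 14.4, 14.8 and 15.3 CPM in Carm1 KO libraries. Ndc80 rose by a log2 value of 0.25 ± 0.052 and Nuf2 by 0.54 ± 0.052 (adjusted p = 3.7e-05 and 1.5e-12, edgeR). Both were higher in all Carm1 KO libraries. Spc24 was at 18.9, 17.7, 18.6 and 17.6 CPM in Control KO and at 10.4, 11.7, 9.97 and 11.1 CPM in Carm1 KO libraries. It fell by a log2 value of -0.75 ± 0.052 (adjusted p = 8.7e-17, edgeR), with no overlap. Spc25 was at 6.26, 7.23, 6.46 and 6.47 CPM in Control KO and at 5.98, 6.39, 5.02 and 5.46 CPM in Carm1 KO libraries, and its groups overlapped. Its log2 fold change was -0.21 ± 0.075 (adjusted p = 0.011, edgeR). The call was lost without Carm1 KO replicate 3 (0.064) and among genes of at least 5 CPM in 4 libraries (0.16). It was also lost with library totals alone (0.57) and with upper-quartile factors (0.91). Over all alternatives the adjusted p ran from 0.0028 to 1.0. The upper end came from the test against a 1.5-fold change, which asks for a larger difference. The ratio of Nuf2 to Spc24 in RPKM was 0.226 ± 0.00374 in Control KO and 0.558 ± 0.0430 in Carm1 KO libraries, while that of Ndc80 to Spc25 was 2.80 ± 0.183 in Control KO and 3.87 ± 0.543 in Carm1 KO libraries.

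The spindle assembly checkpoint, which delays chromatid separation until all kinetochores are attached, had 4 of 5 genes higher and Bub3 lower. Bub1b, for the checkpoint protein BUBR1, was at 23.6, 24.5, 25.0 and 23.1 CPM in Control KO and at 50.6, 48.2, 49.1 and 50.3 CPM in Carm1 KO libraries, a 2.06-fold rise. Ttk, for the kinase MPS1 that starts the signal, rose 1.55-fold. The kinase gene Bub1 and Mad2l1, for MAD2, rose by log2 values of 0.21 ± 0.053 and 0.18 ± 0.036 (adjusted p = 3.5e-04 and 2.6e-05, edgeR), each below 1.5-fold. Bub3, for the adaptor that brings BUB1 and BUBR1 to kinetochores, was at 135, 141, 137 and 134 CPM in Control KO and at 103, 96.7, 96.2 and 97.8 CPM in Carm1 KO libraries. It fell by 0.47 on the log2 scale (SE 0.025, adjusted p = 2.4e-20, edgeR) with no overlap, and the ratio of Bub1b to Bub3 in RPKM was 0.289 ± 0.00681 in Control KO and 0.825 ± 0.0170 in Carm1 KO libraries.

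The chromosomal passenger complex corrects faulty attachments and later directs cytokinesis. Its 4 subunits all rose, Birc5 by the most. Aurkb, for the kinase Aurora B, was at 20.8, 21.9, 20.1 and 20.2 CPM in Control KO and at 37.4, 36.6, 37.3 and 36.0 CPM in Carm1 KO libraries. Birc5, for survivin, was at 14.3, 13.3, 15.1 and 13.9 CPM in Control KO and at 30.3, 28.3, 28.6 and 29.5 CPM in Carm1 KO libraries. Each gene was higher in all 4 Carm1 KO libraries. The log2 fold changes were 1.04 ± 0.044 for Birc5, 0.83 ± 0.038 for Aurkb, 0.74 ± 0.041 for Cdca8, which encodes borealin, and 0.70 ± 0.027 for the scaffold gene Incenp. The ratio of Aurkb to Incenp in RPKM was 0.472 ± 0.0260 in Control KO and 0.517 ± 0.0186 in Carm1 KO libraries, and that of Cdca8 to Incenp was 0.230 ± 0.00981 in Control KO and 0.237 ± 0.00980 in Carm1 KO libraries. The ratio of Birc5 to Incenp was 0.278 ± 0.0110 in Control KO and 0.354 ± 0.0123 in Carm1 KO libraries.

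Chromatids separate when the anaphase-promoting complex with its activator CDC20 marks securin and cyclin B for destruction, which frees the protease separase. All 7 genes of this step rose. Ube2c, for the ubiquitin-conjugating enzyme of that complex, was at 8.03, 9.24, 7.57 and 7.81 CPM in Control KO and at 63.7, 60.3, 59.2 and 62.1 CPM in Carm1 KO libraries. The log2 fold change was 2.91 ± 0.045 (adjusted p = 2.7e-39, edgeR), and the overlapping gene Tnnc2 on the opposite strand had a mean of under 1 count per library. Cdc20 was at 18.4, 20.0, 20.4 and 21.0 CPM in Control KO and at 52.4, 48.1, 50.1 and 47.5 CPM in Carm1 KO libraries, a 2.49-fold rise. Pttg1, for securin, was at 15.7, 16.9, 17.1 and 17.0 CPM in Control KO and at 39.2, 34.5, 32.0 and 36.6 CPM in Carm1 KO libraries, with the Carm1 KO libraries more widely spread than the control ones but all above them.

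Espl1, for separase, rose less than securin (1.57-fold against 2.14-fold). Cdca3, for a ubiquitin ligase adaptor that promotes entry into mitosis, rose from 6.40 ± 0.521 to 21.2 ± 0.844 CPM (3.32-fold). The shugoshin genes Sgo1 and Sgo2a, for the protectors of cohesin at centromeres, differed in size. Sgo2a was low at 2.34 ± 0.189 and 5.51 ± 0.280 CPM and rose 2.35-fold, but 35.0% of its exon length is shared with Kctd18 on the opposite strand, whose counts also rose from a mean of 545 to 1116 per library, so its reads cannot be told apart there. Sgo1 was at 9.76, 9.38, 9.55 and 8.76 CPM in Control KO and at 11.5, 11.1, 9.47 and 10.7 CPM in Carm1 KO libraries. The groups overlapped, at a log2 fold change of 0.19 ± 0.061 (adjusted p = 0.004, edgeR).

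Spindle assembly genes had the largest median of the roles, 2.25 on the log2 scale over 4 genes, all higher. Psrc1 (ENSMUSG00000068744, chromosome 3, 108383839 to 108388231, plus strand, mm10), for a microtubule-binding protein of the mitotic spindle, was at 1.24, 1.33, 1.22 and 1.31 CPM in Control KO and at 50.9, 48.7, 49.5 and 49.2 CPM in Carm1 KO libraries. The log2 fold change of 5.28 ± 0.061 (adjusted p = 6.7e-44, edgeR), a 38.8-fold difference, was the largest of the set. In RPKM it moved from place 44 of 46 in Control KO to place 11 in the Carm1 KO libraries. Hmmr, for a spindle-associated hyaluronan receptor, was at 4.48, 5.22, 4.91 and 4.78 CPM in Control KO and at 25.1, 24.4, 25.2 and 24.2 CPM in Carm1 KO libraries. Nusap1, for a microtubule-bundling protein, rose from 8.93 ± 0.685 to 39.8 ± 1.24 CPM (4.46-fold). Tpx2, for the activator of Aurora A on the spindle, rose only 1.48-fold, from 29.8 ± 1.15 to 43.9 ± 1.38 CPM.

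All 5 cytokinesis genes rose, with no overlap between groups. Prc1, for the protein that bundles microtubules between the separating chromosomes, was at 9.02, 9.38, 9.28 and 9.72 CPM in Control KO and at 27.5, 27.1, 26.6 and 29.5 CPM in Carm1 KO libraries, a 2.96-fold rise. Its exons share 911 bases, 11.1% of their length, with Rccd1 on the opposite strand, whose counts averaged 485 and 537 per library. Cep55, for the protein that recruits the abscission machinery, rose 2.26-fold. Anln, for the contractile ring scaffold anillin, rose 1.78-fold, and Ect2, for the exchange factor that activates RhoA at the cell equator, rose 1.52-fold. Racgap1, for the partner of ECT2 in centralspindlin, was the most abundant of the 5 in RPKM and rose from 65.7 ± 0.927 to 106 ± 1.61 CPM (1.61-fold).

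**Figure D3:**
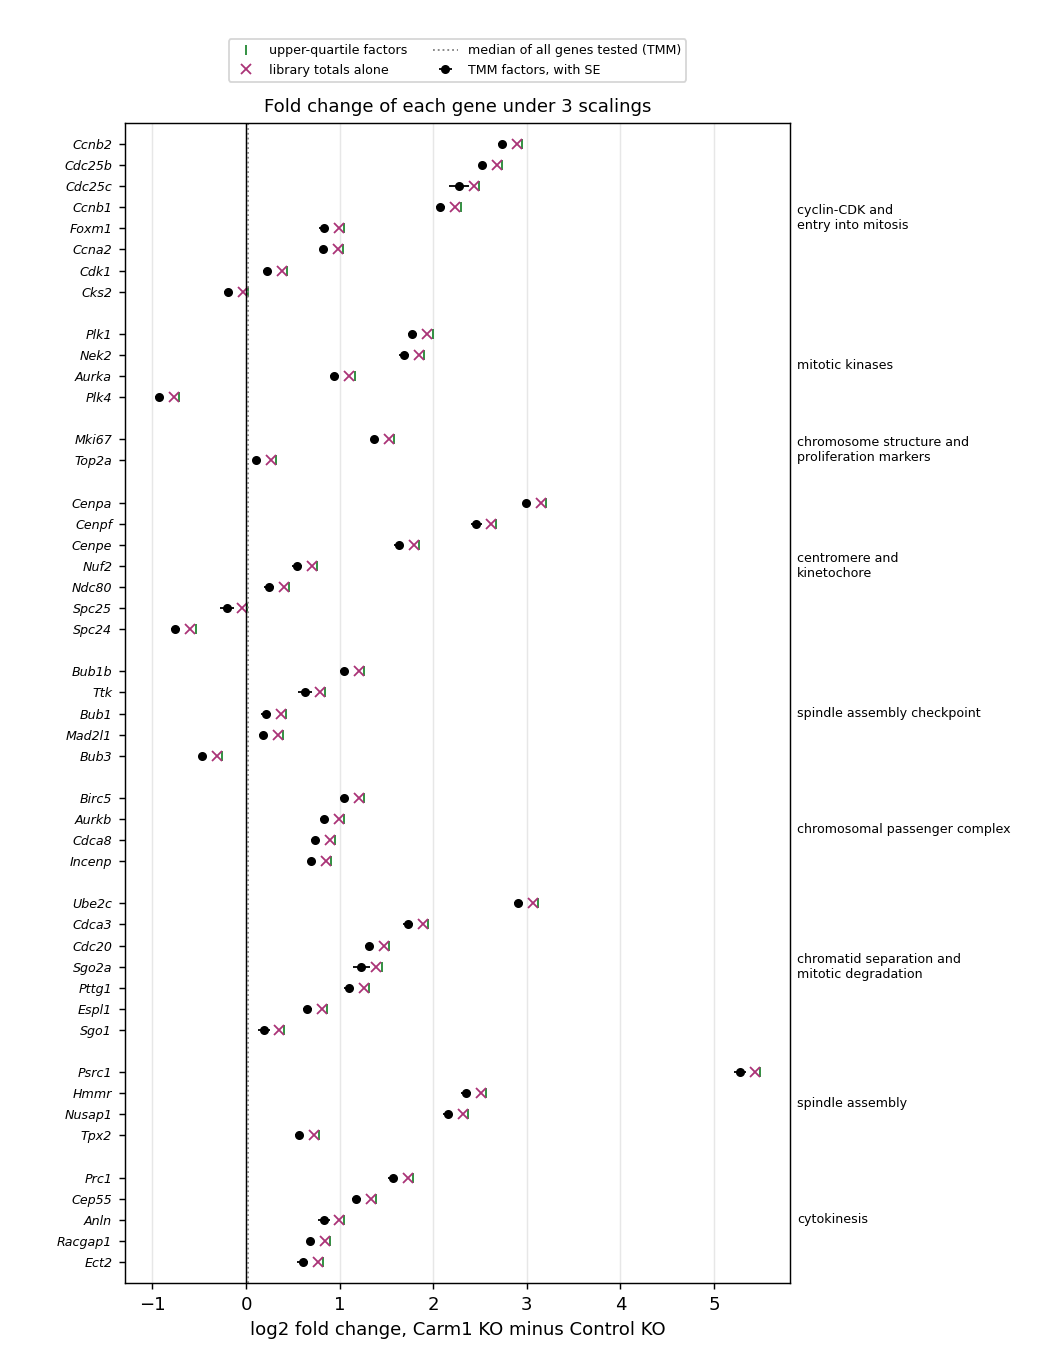
Log2 fold change (Carm1 KO minus Control KO) of each of the 46 genes with TMM factors (black points, bars are SE), upper-quartile factors (green ticks) and library totals alone (purple crosses), grouped by role, with the median of all genes tested as a dotted line. Scaling shifts every gene alike, and Cks2 and Spc25 are the genes whose value changes sign.

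Other genes of the cell cycle were described from lists that overlap the set in function but hold none of its members. The counts of each list stand beside 44.5% of all tested genes called higher and 43.2% called lower. The mitotic kinesins, motors of the spindle and midzone, matched the set in direction, with 12 of 12 higher and a median log2 fold change of 1.14. Kif2c, a microtubule depolymerase at kinetochores, rose 3.78-fold, Kif18b 3.23-fold, Kif23, a part of centralspindlin, 2.97-fold, and Kif11, which pushes spindle poles apart, 2.69-fold. Kif23 and Racgap1, which together form centralspindlin, thus both rose.

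Structural and housekeeping parts of the mitotic machinery were mixed, as were all tested genes (44.5% higher and 43.2% lower). Of 8 condensin subunits 4 rose and 4 fell, with Smc4 rising from 182 ± 2.10 to 913 ± 17.4 CPM (5.02-fold) and its partner Smc2 falling from 86.2 ± 1.46 to 39.4 ± 2.29 CPM (2.19-fold). Of 13 cohesin genes 4 rose, 6 fell and 3 did not pass (Smc1a 2.19-fold lower). Of 17 genes of the anaphase-promoting complex and its regulators 5 rose and 12 fell, Anapc5 1.81-fold lower, though Fzr1, for the activator CDH1 of late mitosis, rose 1.45-fold. With upper-quartile factors that split was 8 higher and 6 lower, and with library totals alone 7 were lower.

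Other centromere and kinetochore genes split into 11 higher, 16 lower and 3 not passing of 30, with Hjurp, the chaperone of CENP-A, 1.81-fold higher and Pmf1, a part of the MIS12 complex, 2.66-fold lower. Of 26 other spindle and centrosome genes 10 rose, 13 fell and 3 did not pass. Aspm, a spindle pole protein gene, rose 6.51-fold and Haus6, of the augmin complex, fell 1.90-fold. The median log2 fold changes of these lists were -0.18 and -0.084, beside 0.02 for all genes tested. Of all genes tested 44.5% were higher and 43.2% lower.

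Earlier phases of the cycle moved the other way. Of 46 DNA replication genes 44 fell, 1 did not pass and 1 rose, with a median log2 fold change of -1.79. Mcm5, for a helicase subunit, was at 491, 503, 487 and 492 CPM in Control KO and at 49.0, 47.1, 48.5 and 49.6 CPM in Carm1 KO libraries. Ung, for uracil-DNA glycosylase, fell 13.8-fold. The gene that rose was Tk1, for thymidine kinase, at 14.7 ± 0.900 and 16.2 ± 0.684 CPM. Tk1 was named after its values were seen. The 46 mitosis and cytokinesis genes held 0.168 to 0.171 counts per count of these replication genes in Control KO and 1.23 to 1.25 in the Carm1 KO libraries.

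Of 9 G1 cyclin and kinase genes 8 fell and Ccnd1, near 1 CPM, did not pass. Cdk6 fell 8.36-fold and Ccnd3, for cyclin D3, 3.66-fold. Of 22 genes for MuvB, MYB, E2F, pocket and NF-Y proteins 6 rose, 15 fell and 1 did not pass, with E2f1 at 58.5 ± 0.768 and 9.16 ± 0.380 CPM and E2f2 at 26.5 ± 1.22 and 123 ± 1.77 CPM, both activators of S phase genes that moved in opposite directions. Of 18 genes that brake the cycle 11 rose, 6 fell and 1 did not pass. Over all tested genes 44.5% were higher and 43.2% lower. Cdkn1b, for the CDK inhibitor p27, rose 2.65-fold, Btg2 5.44-fold and Ccng2 2.89-fold, while Gadd45g fell 20.2-fold.

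**Figure D4:**
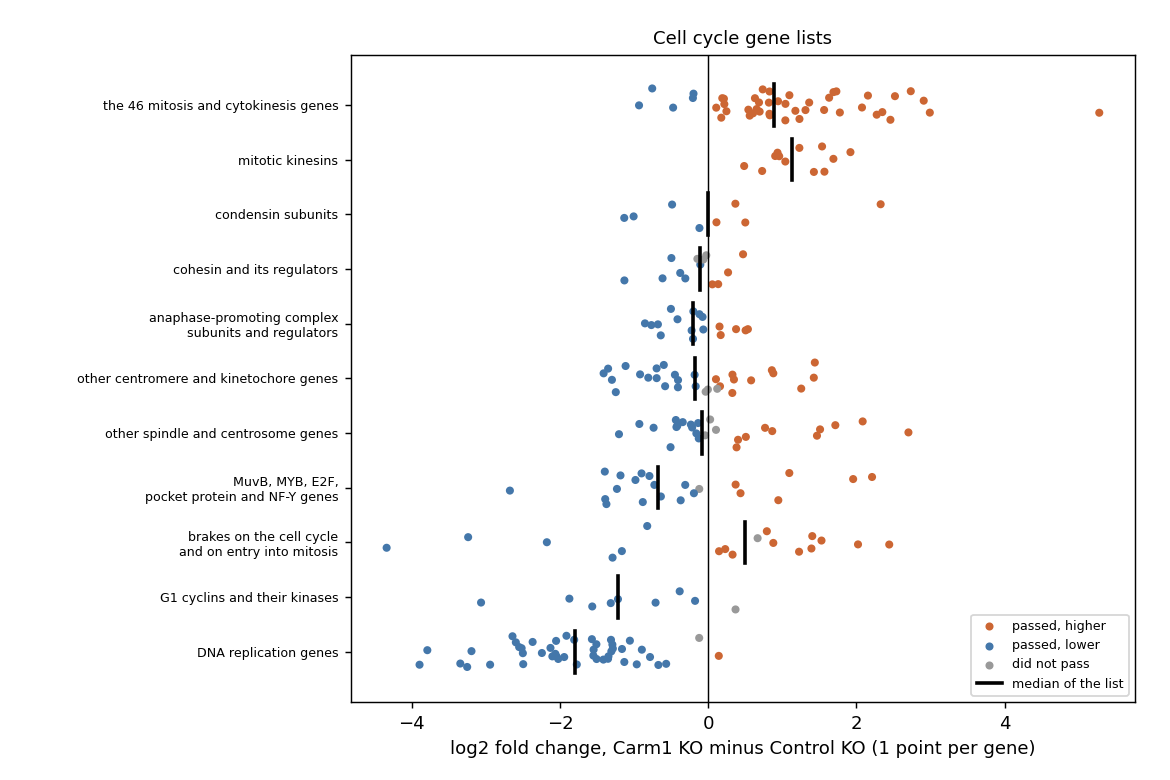
Log2 fold change (Carm1 KO minus Control KO) of each tested gene in the 46-gene set and 10 other cell cycle lists, 1 point per gene, coloured by call, with a black bar at each list's median. The set and the mitotic kinesins lie mostly to the right of 0, and the DNA replication and G1 genes to the left.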

How the data were processed

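Each deposited file gives whole-number counts by Ensembl gene, with exon positions and length, which the authors obtained with RSEM on mm10, as the submitters' processing notes and the labels' protocols record (per the labels). RSEM gives estimated counts that need not be whole, so the origin of the whole numbers is unclear, and reads of similar genes may have been split or dropped. The sources used here do not give the aligner, annotation release, strand setting or versions. Libraries were made with a poly(A) kit without strand information and read as paired 150 bp. Symbols came from GENCODE M21 (48970 of 49315 identifiers), and exon overlaps from the deposited positions.

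The counts were used as deposited. Genes were kept by edgeR's filterByExpr, scaled with TMM factors (0.938 to 0.953 for Control KO, 1.05 to 1.07 for Carm1 KO) and compared by two-sided quasi-likelihood F tests with robust fitting (edgeR 4.0.16 in R 4.3.3) with Benjamini-Hochberg adjustment over 14970 genes and a threshold of 0.05. The SE is the log2 fold change over the square root of F. RPKM is TMM-scaled CPM per kilobase of all exons annotated for a gene. That length can differ from the length of the transcripts present, so the order of genes in RPKM depends on it. Pairs of libraries within a group differed by more than sampling noise (chi-square of 1.47 to 14.2 per degree of freedom, over genes with 30 or more counts in the pair), so none was treated as a copy. In a library 3 counts correspond to 0.0724 to 0.0799 CPM.

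The members, lists and naming rule were chosen with earlier results of these data known. The rule named all 46 genes, Carm1, up to 4 genes per list with the smallest p and up to 3 marker genes per list. Marker lists not described in the report gave 4 of 4 CD4 and regulatory T cell genes higher, 4 of 6 erythroid genes lower, and 3 of 4 platelet genes lower. Alternatives were upper-quartile or RLE factors, library totals alone, a filter of 5 CPM in 4 libraries or none, limma-voom (limma 3.58.1), DESeq2 1.42.0, testing against a 1.5-fold change, blocking on the replicate number, and leaving out each library. On simulated counts for 14970 genes of this comparison, edgeR recovered 76%, 82%, 90% and 94% of 50 genes each changed 1.3-, 1.5-, 2- and 4-fold, and called 14 of 14770 unchanged genes, which is 7.57% of its calls and above the 5% aimed at. Only 200 genes were changed there, equally up and down, whereas 87.7% of genes passed in the data. The simulated rates therefore cannot be taken as those of the real comparison. A planned search of proteins for the KEN box was not run.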

Additional observations from a re-analysis of the deposited data

Results flagged for a closer look

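In 3 of the 94 groups of 4 libraries examined (46 genes and Carm1, 2 groups each) a library stood apart by Dixon's test at the 95% level, where chance flags about 1 in 20 groups. Cdc25c was at 1.49 CPM in Control KO replicate 1 and at 1.17 to 1.20 CPM in the other Control KO libraries. Ttk was at 4.01 CPM in Control KO replicate 4 and at 4.79 to 4.92 CPM in the others. Sgo2a was at 2.06 CPM in Control KO replicate 3 and at 2.41 to 2.47 CPM in the others. Each of these genes kept its call as higher with any single library left out, and all 3 are low in the Control KO libraries.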

How the results depend on the processing

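Over 17 alternatives, 763 of 782 values for the 46 genes kept their direction and their side of the threshold. The other 17 lost their call and 2 turned, and they belonged to 13 genes. The turned values were those of Cks2 (0.018) and Spc25 (0.0094) with upper-quartile factors. The numbers of genes of the set higher and lower were 41 and 3 with upper-quartile factors, 41 and 3 with library totals alone, and 31 and 2 in the test against a 1.5-fold change, which asks for a larger difference. The median log2 fold change of the set was 1.10 with upper-quartile factors, 1.05 with library totals alone, 0.86 with no filter and 0.98 among genes of at least 5 CPM in 4 libraries. Leaving out each library gave 41 higher, 4 to 5 lower and 22 at least 2-fold higher. Over all genes, the test against a 1.5-fold change called 3992 higher and 3444 lower, and the filter of 5 CPM left 1543 at least 2-fold higher and 1270 at least 2-fold lower, out of fewer genes tested.

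In the test against a 1.5-fold change, 1 condensin gene was higher and 2 lower, 0 cohesin genes were higher and 1 lower, 0 genes of the anaphase-promoting complex list were higher and 4 lower, 5 other centromere and kinetochore genes were higher and 8 lower, 3 other spindle and centrosome genes were lower, and 0 DNA replication genes were higher. With upper-quartile factors 7 cohesin genes were higher, 8 genes of the anaphase-promoting complex list were higher and 6 lower, 8 other spindle and centrosome genes were lower and 1 G1 gene was higher. With library totals alone 7 genes of the anaphase-promoting complex list and 8 other spindle and centrosome genes were lower and 1 G1 gene was higher. Leaving out each library gave 0 to 1 G1 genes higher (1 without Carm1 KO replicate 2) and 0 to 1 DNA replication genes higher (0 without Control KO replicate 4). The cause of these changes was not tested. With the replicate number as a block, 41 genes of the set were higher and 5 lower. Libraries with the same number did not deviate together (correlations of -0.47 to -0.17 over 8553 genes), so the numbers do not pair them. Motif shares fell when only the strand of the gene was searched, to 57.8% of the windows for the CHR and 57.8% for the CCAAT box, against 21.2% and 21.1% of all windows. Depth limits the low genes most, since counts of the set per library ran from 43 to 8396.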

Other observations

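Within groups the 46 genes varied little. The median coefficient of variation between libraries was 4.31% for Control KO and 3.21% for Carm1 KO, where counting error alone gives medians of 4.75% and 2.91%. The libraries thus differed for these genes by about as much as counting error.

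The order of transcript levels per exon length also differed between the groups. In the Control KO libraries Cks2 (42.6 RPKM), Top2a (20.7), Bub3 (19.5), Incenp (14.9) and Cdc20 (10.7) led the set. In the Carm1 KO libraries Cdc25b (37.6 RPKM) and Cks2 (37.2) led, followed by Ccnb2 (29.8), Cdc20 (26.5) and Incenp (24.2). Sgo2a was lowest in both groups, at 0.334 and 0.786 RPKM. The 5 most abundant genes by CPM, which does not correct for length, held 46.4% of the summed CPM for Control KO and 35.4% for Carm1 KO.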
